A study of Mus musculus with 2 samples.

Results

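A set of 9 transcripts of epithelial to mesenchymal transition (EMT) was followed through the cells of mouse pancreatic tumours: Vim, the transcription factor genes Zeb1, Zeb2, Snai1, Snai2, Twist1 and Prrx1, and the cadherin genes Cdh1 and Cdh2. The genes were chosen by symbol, and each of the 9 names matched 1 of the 32285 genes listed in both count tables. The cells came from pancreatic tumours of KPPC mice, a strain bred to develop pancreatic ductal carcinoma from Cre-driven alleles that include loss of Trp53. The labels give neither the alleles nor the Cre driver. In the labels, mice aged 6 weeks received vehicle in 1 group and takinib at 50 mg/kg in the other for 14 days, and each group is 1 library of dissociated tumour. How many mice went into a library is not stated. Takinib blocks the kinase TAK1, which lies upstream of NF-kB and of AP-1 factors in inflammatory signalling. The comparison between the libraries asks how transcripts of the tumour cells and their surroundings differ after TAK1 inhibition. With 1 library per group there is no replicate check and no test. Intervals in square brackets are at 95% and cover counting error only, and levels are in CPM, counts of a gene per 1000000 counts of its class and library.

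EMT is the programme by which epithelial cells loosen their junctions and take on features of mesenchymal cells. Cdh1 encodes E-cadherin, the adhesion molecule of epithelial junctions, and Cdh2 encodes N-cadherin, its counterpart in mesenchymal and neural cells. Vim encodes vimentin, the intermediate filament of mesenchymal cells and leukocytes. Zeb1, Zeb2, Snai1 and Snai2 encode zinc finger proteins that bind E-box motifs and repress Cdh1, Twist1 encodes a basic helix-loop-helix factor, and Prrx1 encodes a homeodomain factor of embryonic and tumour mesenchyme. Stromal cells and macrophages use several of the same genes, so that their levels were set out by cell class.

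Upstream sequences are shown for 4 of the genes, chosen as follows. Twist1 and Prrx1, like several of the 9 genes, were higher in the Vim-rich than in the Vim-poor takinib cells of a Cdkn2a-led epithelial-like cluster. Snai1 carries the motif that its own protein family binds. RefSeq promoter windows on GRCm38.p6 were at hand for 5 of the 9 genes (Vim, Zeb2, Snai1, Twist1 and Prrx1). Zeb1, Snai2, Cdh1 and Cdh2 were not matched. Each line gives the 250 bases before the RefSeq start, 5′ to 3′ on the gene's strand. Capitals mark matches, on either strand, to an E-box (CAGGTG, which reads CACCTG on the other strand) or to an AP-1 site (TGANTCA). They also mark the NF-kB motif and the TATA box (TATAAA).
Vim, chr2:13574061-13574310, plus strand: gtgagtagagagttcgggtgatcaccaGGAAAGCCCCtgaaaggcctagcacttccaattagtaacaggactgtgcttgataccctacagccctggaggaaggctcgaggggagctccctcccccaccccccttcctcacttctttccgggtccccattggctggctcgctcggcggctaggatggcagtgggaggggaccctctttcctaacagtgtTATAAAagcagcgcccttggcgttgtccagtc
Snai1, chr2:167537945-167538194, plus strand: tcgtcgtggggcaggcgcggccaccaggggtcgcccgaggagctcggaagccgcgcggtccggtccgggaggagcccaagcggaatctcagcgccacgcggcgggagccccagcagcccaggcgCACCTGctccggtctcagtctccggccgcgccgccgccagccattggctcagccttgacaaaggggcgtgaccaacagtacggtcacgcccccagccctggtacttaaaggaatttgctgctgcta
Twist1, chr12:33957421-33957670, plus strand: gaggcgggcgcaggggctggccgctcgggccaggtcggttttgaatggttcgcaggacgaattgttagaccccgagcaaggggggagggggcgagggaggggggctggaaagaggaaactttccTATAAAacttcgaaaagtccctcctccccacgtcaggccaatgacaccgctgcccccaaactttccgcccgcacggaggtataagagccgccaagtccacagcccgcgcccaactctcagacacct
Prrx1, chr1:163313651-163313900, minus strand: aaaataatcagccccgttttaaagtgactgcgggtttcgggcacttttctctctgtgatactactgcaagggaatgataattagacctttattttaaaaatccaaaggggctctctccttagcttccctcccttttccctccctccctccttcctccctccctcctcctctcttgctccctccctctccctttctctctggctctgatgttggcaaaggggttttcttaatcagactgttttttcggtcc
The Vim window held an NF-kB match 223 to 214 bases before the start and a TATA box 32 to 27 bases before it. The Snai1 window held 1 E-box, 126 to 121 bases before the start. The Twist1 window held the letters TATAAA at 126 to 121 bases, further from the start than in Vim. None of the marked motifs occurred in the Prrx1 window. Of 4 Zeb2 windows, 1 held 2 AP-1 matches, at 189 to 183 and 132 to 126 bases. Among all 32851 windows of this length, 17.2% held the E-box letters, 6.75% those of AP-1, 3.9% the NF-kB motif and 12.4% the letters TATAAA at any position. A match describes the letters and shows no binding.

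The genes lie on 6 chromosomes in the GENCODE M21 annotation of GRCm38. Vim (ENSMUSG00000026728) spans positions 13573927 to 13582826 of chromosome 2, where Snai1 (167538195 to 167542814) and Zeb2 (44983632 to 45117395, minus strand) also lie. Zeb1 (5591860 to 5775467) and Cdh2 (16588877 to 16809246, minus strand) are on chromosome 18. Cdh1 spans 106603351 to 106670246 of chromosome 8 and Snai2 14705852 to 14709385 of chromosome 16. Twist1 spans 33957671 to 33959829 of chromosome 12, and Prrx1 163245119 to 163313710 of the minus strand of chromosome 1.

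The libraries differed in more than treatment. The vehicle library kept 9558 cells with 42000538 UMIs (unique molecular identifiers, 1 per captured transcript) and a median of 3556 per cell, and the takinib library 25183 cells with 119726977 UMIs and a median of 2887. The median mitochondrial share was 8.7% in vehicle and 1.79% in takinib. In vehicle, 1075 cells held Xist without Y-linked UMIs and 3087 the reverse, while takinib held 14324 cells with Xist and 0 with Y-linked UMIs. The cells of vehicle with Xist alone or Y-linked UMIs alone are called female and male vehicle cells below. S100a8, a neutrophil transcript, reached 4683 CPM in epithelial-like cells of takinib against 55.5 in vehicle. The libraries shared 359 cell barcodes, 3.76% of those of vehicle and 1.43% of those of takinib. By the design, effects of library, depth and sex of the animals cannot be told apart from treatment.

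Classes were built from clusters of both libraries without the 9 genes, and named "-like" after their markers. The epithelial-like class held 1749 vehicle and 1867 takinib cells, with all 11 epithelial markers detected at a summed level of 8863 and 9817 CPM. Cdkn2a, a tumour suppressor locus used here as a sign of carcinoma cells, had 709 and 450 CPM in them. It was not confined to them, with 202 and 50.6 CPM in fibroblast-like cells and 94 in perivascular-like cells of vehicle. At least 100 cells in both libraries were found in 7 classes, and the perivascular-like class had 592 cells in vehicle and 14 in takinib.

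Vim was highest in endothelial-like cells, at 2448 CPM [2380, 2518] in vehicle and 2451 [2336, 2571] in takinib, which did not differ beyond counting error. Perivascular-like cells of vehicle followed with 2198 [2137, 2260] and fibroblast-like cells of takinib with 2129 [2082, 2176], and these intervals overlapped. Then came macrophage-like cells of takinib with 1562 CPM, epithelial-like cells of vehicle with 1359, fibroblast-like cells of vehicle with 1110 and macrophage-like cells of vehicle with 703. T-like and B-like cells, and neutrophil-like cells of takinib, lay between 407 and 643 CPM. Epithelial-like cells of takinib, at 338 CPM [330, 345], stood below them, followed by neutrophil-like cells of vehicle at 202 [158, 254]. The place of the epithelial-like cells in this order was thus high in vehicle and low in takinib, as the plot of levels by class shows.

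**Figure D1:**
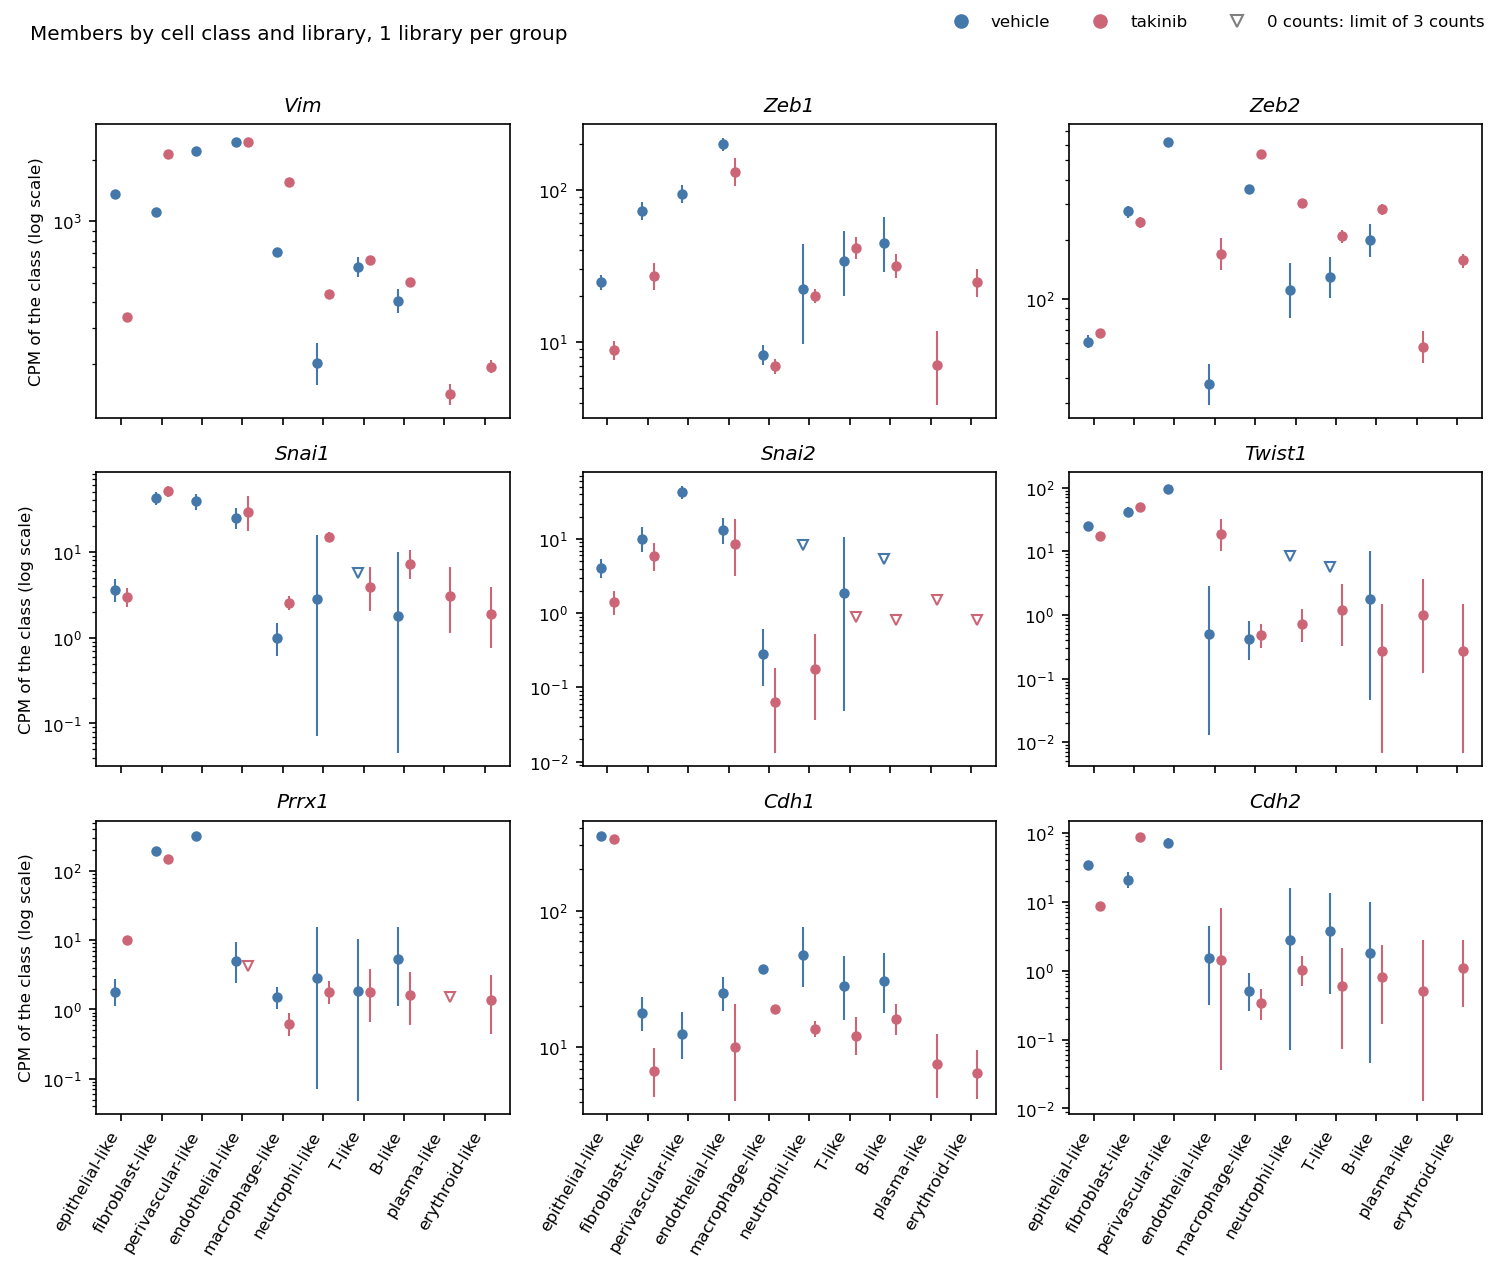
Level of each of the 9 genes (CPM, log axis, different for each gene) in every class with at least 100 cells, vehicle in blue and takinib in red, 1 library each; bars are 95% Poisson intervals and open triangles mark 0 counts at the level of 3 counts. Cdh1 stands out in epithelial-like cells of both libraries, at 353 and 332 CPM, while Vim there differs, at 1359 and 338 CPM.

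Cdh1 was an epithelial transcript in both libraries, with 353 CPM [342, 364] in vehicle and 332 [324, 340] in takinib, in 70.6% and 75.7% of epithelial-like cells. All other classes of at least 100 cells lay between 6.49 and 47.7 CPM. In vehicle those other classes lay below the 133 CPM [107, 165] counted in free RNA, taken from 376283 barcodes of 1 to 100 UMIs. T-like cells held Cdh1 in 5.93% of vehicle and 2.97% of takinib cells, at median depths of 1429 and 1880 UMIs, and these low shares are read as background. The difference in macrophage-like cells, 37.3 against 19 CPM, lies in that range.

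Cdh2 was found in fibroblast-like, perivascular-like and epithelial-like cells. Its levels were 86.6 CPM [77.4, 96.6] in fibroblast-like cells of takinib and 71.7 [61.1, 83.7] in perivascular-like cells of vehicle, with overlapping intervals. Epithelial-like cells of vehicle came next with 33.9 CPM [30.7, 37.5], then fibroblast-like cells of vehicle with 20.9 [15.9, 26.9]. In vehicle the epithelial-like class thus lay above the fibroblast-like one. Epithelial-like cells of takinib had 8.69 CPM [7.48, 10]. Every other class of at least 100 cells was at 3.76 CPM or less.

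Among the transcription factor genes, Prrx1, Twist1, Snai1 and Snai2 were highest in stromal classes. Prrx1 stood at 320 CPM in perivascular-like cells of vehicle, at 195 and 148 in fibroblast-like cells of vehicle and takinib, and at 10 or less in the other classes with at least 100 cells. Twist1 was at 93.6 CPM in perivascular-like cells of vehicle and at 41.4 [34.3, 49.6] and 49.5 [42.6, 57.2] in fibroblast-like cells, the latter not separated beyond counting error. It was not confined to stroma: epithelial-like cells of vehicle had 25.1 CPM, and 1 of their clusters, led by Cdkn2a, had 44.5 [39.5, 50], which overlapped with the interval of fibroblast-like cells of vehicle. Among groups of at least 100 cells of 1 class and library, Snai1 was highest in fibroblast-like cells, at 42.1 [35, 50.4] and 51.1 [44.1, 58.9] CPM. The 38.8 [31.1, 47.8] of perivascular-like cells of vehicle overlapped with both. Snai2 was highest in perivascular-like cells of vehicle, at 42.8 CPM, ahead of endothelial-like cells of vehicle at 13.2. Zeb1 was highest in endothelial-like cells, at 198 CPM [179, 219] in vehicle and 131 [105, 161] in takinib. Zeb2 was highest in perivascular-like cells of vehicle, at 617 CPM, and in macrophage-like cells, at 359 and 540, among named classes of at least 100 cells. It was not confined to them, with 305 CPM in neutrophil-like cells of takinib, 277 and 245 in fibroblast-like cells and 199 and 284 in B-like cells. Its antisense neighbour Zeb2os had 15.7 and 20.8 CPM in macrophage-like cells, and whether the counting used strand is not given in the sources used here.

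In epithelial-like cells, takinib had less Vim, Cdh2 and Zeb1 and more Prrx1 than vehicle, while Cdh1 was close between the libraries. Vim stood at 1359 CPM [1338, 1380] in vehicle and 338 [330, 345] in takinib, a ratio of 0.248 [0.242, 0.255]. Cdh2 stood at 33.9 and 8.69 CPM, a ratio of 0.256 [0.214, 0.305]. Zeb1 stood at 24.7 and 8.87 CPM, a ratio of 0.359 [0.298, 0.433]. Prrx1 went the other way, with 21 counts or 1.8 CPM in vehicle and 215 counts or 10 CPM in takinib, a ratio of 5.58 [3.56, 9.2]. Cdh1 had a ratio of 0.941 [0.905, 0.978], which turned to 1.04 when ratios were scaled to the median gene, whose ratio was 0.909. Zeb2 (61.3 and 67.5 CPM), Snai1 (3.6 and 2.94 CPM) and Twist1 (25.1 and 17.1 CPM) stayed within 2-fold, and Snai2 had 47 and 30 counts, under the minimum of 50. Free RNA of vehicle had 27.6 CPM [16.4, 43.6] of Zeb1, 235 of Zeb2 and 35.3 of Prrx1. Epithelial-like cells of vehicle did not stand above it in these genes. They did in Vim and Cdh2, which had 607 and 10.7 CPM in free RNA. Free RNA is only a part of a cell's counts, so that its level does not set the background within cells. Over the alternatives Snai1 ran from 0.312 to 2.81 and Zeb2 from 0.311 to 1.57, on either side of 1. So 3 of the 8 genes that could be counted were at least 2-fold lower and 1 was at least 2-fold higher, where 7.59% and 7.15% of 12523 genes were.

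Markers of other cells moved with these values. The 9 neutrophil markers, all detected in both libraries, summed to 142 CPM in epithelial-like cells of vehicle and 9559 in takinib. The 12 macrophage markers, all detected, summed to 963 and 506 CPM, and Ptprc, the pan-leukocyte gene, stood at 37.2 and 88.4. Fibroblast markers summed to 97.7 CPM in vehicle, with 10 of 10 detected, and 133 in takinib, with 9 of 10. Takinib cells without any S100a8 or S100a9 UMI gave a lower Vim ratio, 0.116 [0.0979, 0.137], from 141 Vim counts. That setting left under 50 takinib cells of the Vim-rich Cdkn2a-led cluster described below, so that it also changed the mix of clusters. Against male vehicle cells the Vim ratio was 0.211 and against female ones 0.281. Twist1 turned direction with sex: it had 11.1 CPM in female vehicle cells, from 15 counts, and 30.7 in male ones, so that takinib was 1.54 times the female value.

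**Figure D2:**
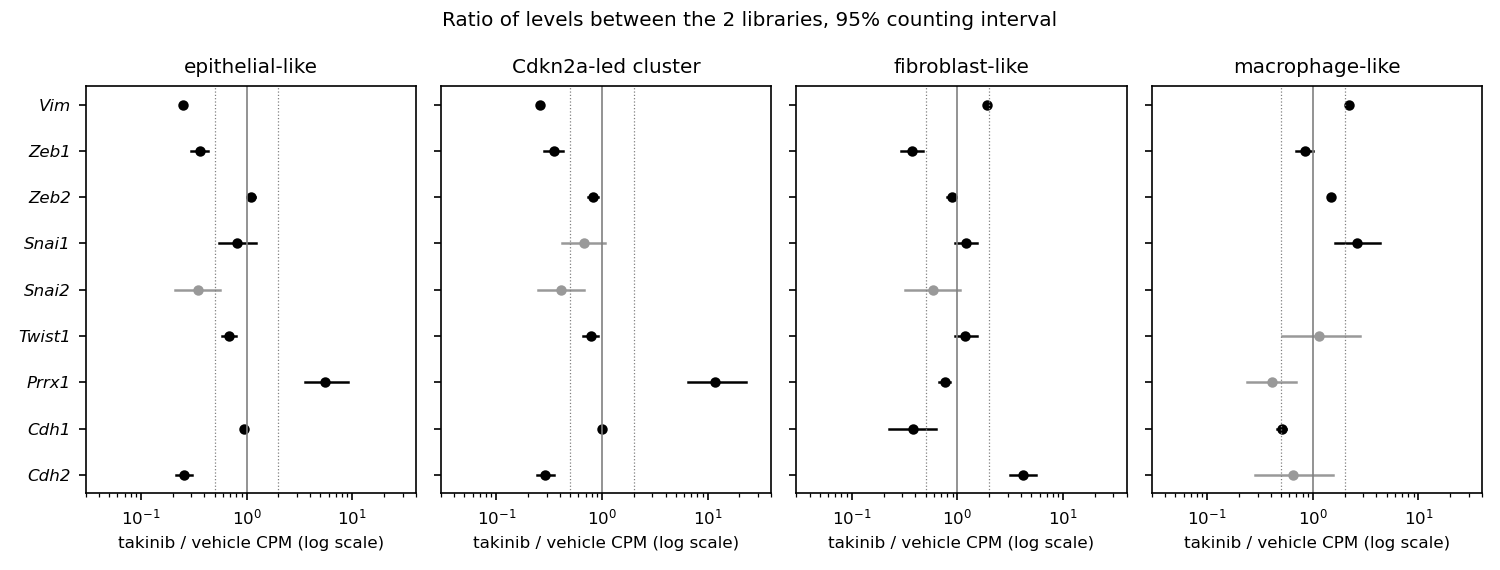
Ratio of takinib to vehicle CPM for each of the 9 genes (log axis) with its 95% counting interval in epithelial-like cells, in their Cdkn2a-led cluster, in fibroblast-like and in macrophage-like cells; dotted lines mark 0.5 and 2, grey points have under 50 counts in both libraries, and genes under 10 counts in all are not drawn. Vim lies at 0.248 in epithelial-like cells and 2.22 in macrophage-like cells, and Cdh2 at 0.256 and, in fibroblast-like cells, 4.14.

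The epithelial-like class held 4 clusters, named after their leading genes. A Cdkn2a-led cluster had 806 vehicle and 657 takinib cells, a Gkn3-led cluster 802 and 906, a Gkn2-led cluster 23 and 224, and a Spink4-led cluster 118 and 80. Gkn3 and Gkn2 are gastric mucosal genes and Spink4 is known from goblet cells. Cdkn2a stood at 1176 and 751 CPM in the cluster it led and at 180 and 234 in the Gkn3-led cluster. Vim was concentrated in the Cdkn2a-led cluster: 2447 CPM in vehicle and 639 in takinib, against 41.7 and 71.9 in the Gkn3-led cluster. Cdh1 did not share that contrast, with 355 and 357 CPM in the Cdkn2a-led and 356 and 321 in the Gkn3-led cluster.

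The lower Vim of takinib was thus found in the Cdkn2a-led cluster, at a ratio of 0.261 [0.254, 0.269], and the Gkn3-led cluster had the opposite, 1.73 [1.47, 2.04]. Vim was also higher in takinib in the small Gkn2-led (43.7 and 282 CPM) and Spink4-led clusters (147 and 508). Ptprc was higher there too, at 78.7 and 274 and at 49.5 and 381 CPM. In the Gkn3-led cluster neutrophil markers, 9 of 9 detected, summed to 180 and 6488 CPM, Ptprc stood at 36.3 and 64.7 and the median depth was 4016 and 10428.5 UMIs, and their part was not tested. Cdh2 had 60.7 and 17.8 CPM in the Cdkn2a-led cluster, a ratio of 0.292, and 10 and 15 counts in the Gkn3-led cluster. Zeb1 had 40.8 and 14.2 CPM, a ratio of 0.349 [0.281, 0.432], and the vehicle value lay within its free RNA interval of [16.4, 43.6]. That interval does not set the background within cells. Among other vehicle cells, Zeb1 was at 6.52 CPM in the Gkn3-led cluster and 8.25 in macrophage-like cells, and at 33.8 in T-like and 44.8 in B-like cells. Snai2 had 46 and 28 counts, a ratio of 0.411 [0.247, 0.672]. Zeb2 and Snai1 had ratios of 0.826 and 0.675, and Cdh1 had 1.01 [0.953, 1.06]. Prrx1 had 12 counts in vehicle and 208 in takinib, a ratio of 11.7 [6.56, 23]. In the Gkn3-led cluster 0 of 3 counted genes passed 2-fold, where 5.99% of 10706 genes were higher and 6.19% lower by that much. Of 7 genes that could be counted in the Cdkn2a-led cluster, 3 were at least 2-fold lower and 1 was at least 2-fold higher, where 6.64% and 8.32% of 10765 genes were.

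Female and male vehicle cells of the Cdkn2a-led cluster, 97 and 412 in number, both lay above takinib in Vim, with 1947 and 2754 CPM against 639. Zeb1 had 46.4 and 38.2 CPM in them against 14.2, and Cdh2 36.7 and 67.7 against 17.8. Twist1 did not keep its direction: 17.1 CPM in female cells, from 14 counts, and 53.1 in male cells lay on either side of the 34.9 of takinib. Cdh1 had 429 CPM in female and 332 in male vehicle cells, on either side of the 357 of takinib. The sexes of vehicle thus differed from each other in Twist1 and Cdh1 by more than the libraries did.

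**Figure D3:**
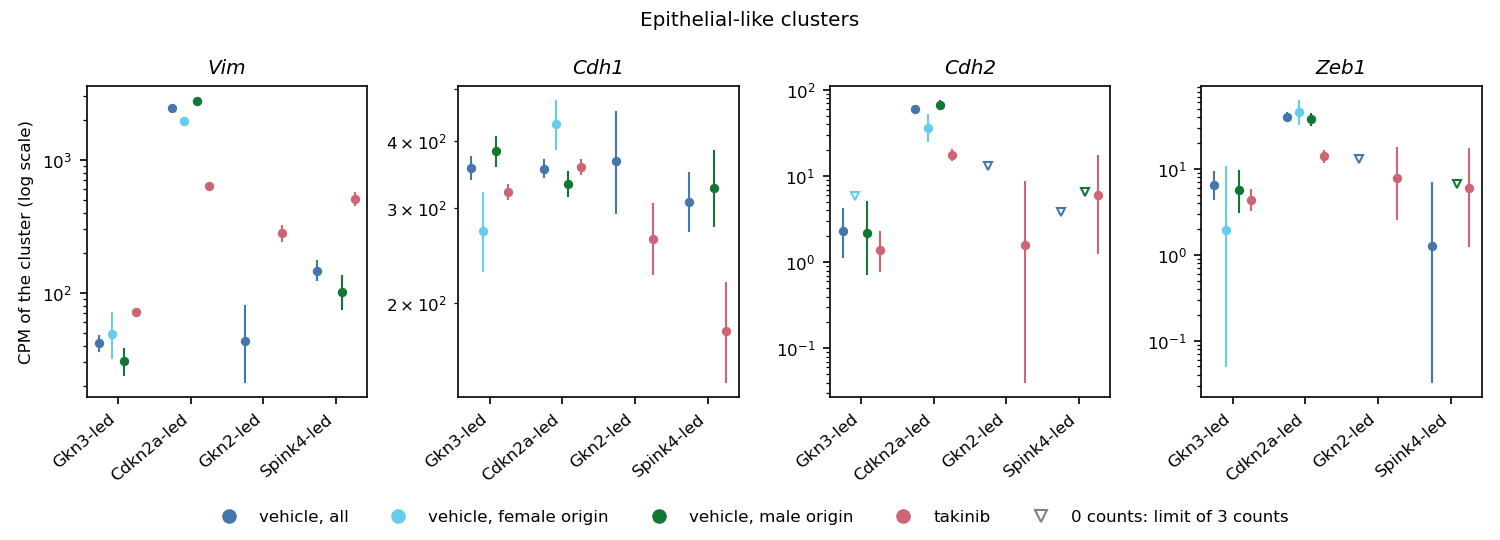
Level of Vim, Cdh1, Cdh2 and Zeb1 (CPM, log axis) in the 4 epithelial-like clusters, for all vehicle cells, vehicle cells of female and of male origin (shown with at least 20 cells) and takinib cells; bars are 95% Poisson intervals and open triangles mark 0 counts at the level of 3 counts. Vim of the Cdkn2a-led cluster is at 1947 and 2754 CPM in female and male vehicle cells and at 639 in takinib.

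Within the Cdkn2a-led cluster, Vim was uneven between cells. With each cell thinned to 1000 UMIs, 56.8% of vehicle cells had no Vim UMI, 19.1% had 1 to 2 and 24.1% [21.2, 27.2] had 3 or more. In takinib the shares were 78.2%, 15.1% and 6.7% [4.91, 8.89]. The median level over cells was 285 CPM in vehicle and 67.4 in takinib, and the highest decile began at 5441 and 1582. In takinib 10 cells held 38.3% of the Vim counts, against 16.4% in vehicle, and without the 10 leading cells of each library the ratio was 0.189. The difference thus lay in how many cells held much Vim, as well as in the sum.

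The cells with more Vim had less Cdh1 and Epcam and more Twist1, Cdh2 and Zeb2 in both libraries. The bins are those of Vim UMIs after thinning. From the bin of 0 to that of 3 or more, Cdh1 went from 502 to 337 to 187 CPM in vehicle and from 401 to 284 to 98.3 in takinib. Epcam, an epithelial adhesion gene, went from 2113 to 288 CPM and from 1954 to 433 between the same end bins. Twist1 went from 7.46 to 31.2 to 96.5 CPM in vehicle and from 24.8 to 55.3 to 88.6 in takinib. Cdh2 went from 34.1 to 73 to 86.6 CPM and from 10.8 to 36.4 to 47.3. Zeb1 went from 28.4 to 64.8 to 43.1 CPM in vehicle, with the top in the middle bin, and from 6.38 to 32.8 to 52.2 in takinib. Zeb2 went from 63.6 to 131 CPM in vehicle and from 57.1 to 125 in takinib between the end bins. Cdkn2a went from 863 to 1406 CPM and from 612 to 1293, so that the Vim-rich cells held as much Cdkn2a as the others or more. Krt18, a simple epithelial keratin, was level in vehicle, at 1758 and 1724 CPM, and lower with Vim in takinib, at 2555 and 847.

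At 3 or more Vim UMIs the libraries overlapped in some genes and not in others. Twist1 was at 96.5 CPM [84.3, 110] in vehicle and 88.6 [69.4, 111] in takinib, and Zeb1 at 43.1 [35, 52.4] and 52.2 [37.7, 70.3], with overlapping intervals. Cdh2 was at 86.6 [75, 99.4] and 47.3 [33.6, 64.7], and Cdh1 at 187 [170, 205] and 98.3 [78, 122], both lower in takinib. In cells without a Vim UMI after thinning, Zeb1 was at 28.4 CPM in vehicle against 6.38 in takinib and Twist1 at 7.46 against 24.8. The bins differed in depth, with medians of 4843.5 and 10498 UMIs in the end bins of vehicle and 11168.5 and 18410.5 in takinib. Ptprc was at 42.7 and 26.7 CPM in the end bins of vehicle and at 84.2 and 42.5 in takinib, lower where Vim was highest, and 135 in the middle bin of takinib.

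**Figure D4:**
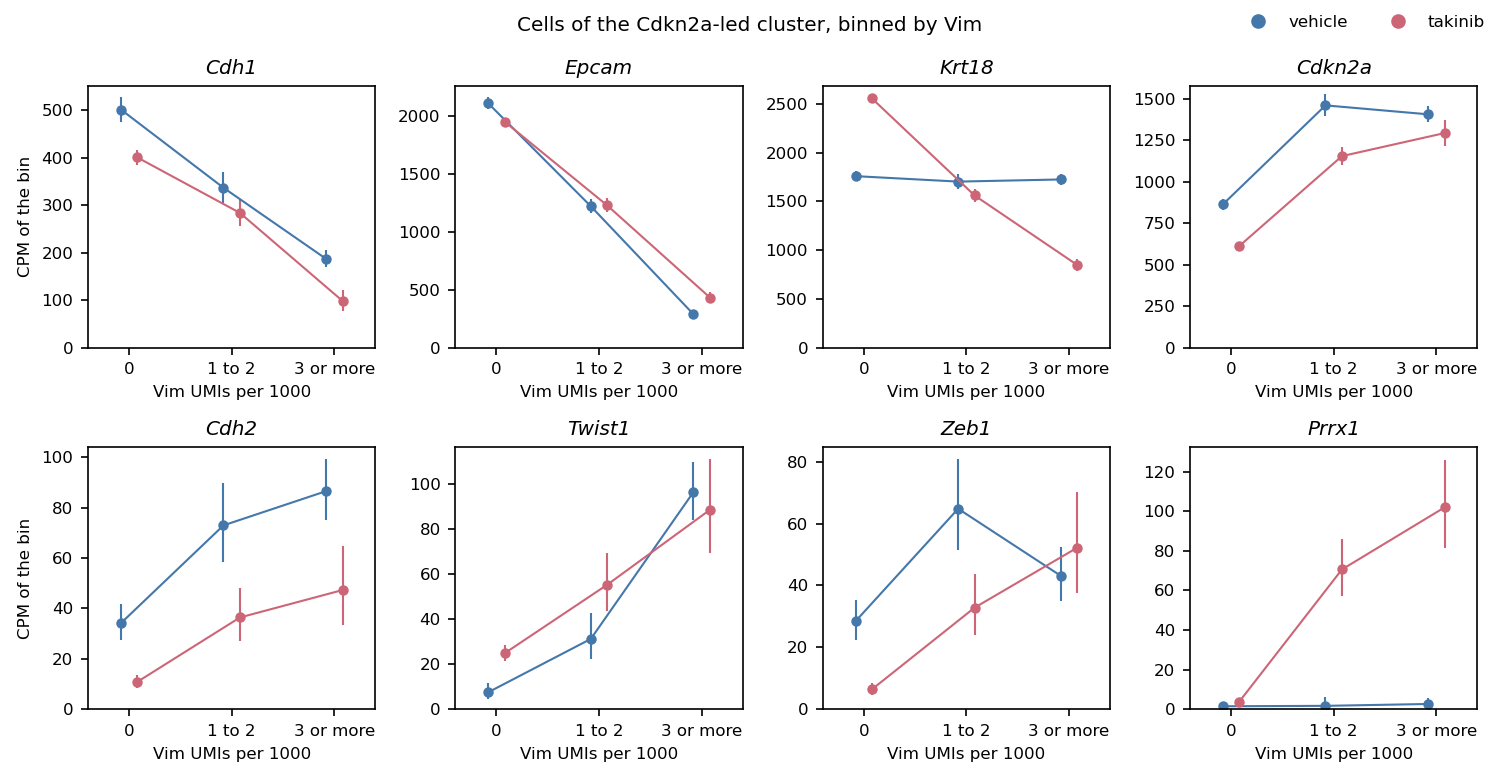
Level of 8 genes (CPM, linear axis from 0) in cells of the Cdkn2a-led cluster grouped by Vim UMIs per 1000, vehicle in blue and takinib in red, with 95% Poisson intervals. Cdh1 and Epcam are lower and Twist1 and Cdh2 higher at 3 or more Vim UMIs in both libraries, while Prrx1 reaches 102 CPM in takinib and 2.58 in vehicle.

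Prrx1 was higher in Vim-rich cells of takinib, and in vehicle it had too few counts to show an order. It went from 3.74 to 70.6 to 102 CPM over the bins of takinib, and lay between 1.42 and 2.58 CPM in vehicle, on 12 counts. It was found in 57 of 657 takinib cells of the cluster, 8.68%, and in 10 of 806 vehicle cells, 1.24%, and 10 cells held 51.4% of the takinib counts. Of the 57 takinib cells 14% held Epcam, 26.3% Cdh1, 29.8% Col1a1 and 47.4% Col3a1, another fibroblast collagen gene, while of the 600 without Prrx1 92.8% held Epcam, 85.8% Cdh1, 5.17% Col1a1 and 5.5% Col3a1. The Prrx1 cells of takinib thus mostly lacked Epcam and Cdh1 and more often held collagen transcripts, at median depths of 16703 and 11277.5 UMIs. Col1a1, the collagen gene of fibroblasts, was at 13.3, 106 and 83.7 CPM over the same takinib bins, against 4965 in fibroblast-like cells of takinib. Sparc, a matrix gene, went from 32.2 to 894 CPM there and from 56.2 to 163 in vehicle. The part of other cell types in these counts was not tested. When cells with Epcam or Krt18 and without Ptprc took the place of the clusters, Prrx1 had 157 and 164 counts and its ratio was 0.816 [0.652, 1.02].

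Other EMT genes were taken from 3 lists. In epithelial-like cells, where 7.15% of all genes were at least 2-fold higher and 7.59% lower, 0 of 21 genes of the epithelial state passed 2-fold, at a median ratio of 1.36 against 0.909 over all genes. Highest in ratio were Ovol1 (2.14 and 4.25 CPM), a repressor of mesenchymal genes, and the claudins Cldn4 (127 and 250) and Cldn3 (142 and 259), and lowest the catenins Ctnnd1 (316 and 213) and Ctnnb1 (898 and 644) and the keratin Krt8 (2177 and 1539). Of 15 mesenchymal genes 3 were at least 2-fold lower and 0 higher, at a median of 0.887: Fn1, which encodes fibronectin (4161 and 942 CPM), Thy1 (9.86 and 3.27) and Itga5 (69.2 and 25.3). Tgfbi (29.5 and 50.4 CPM), Mmp2 (2.4 and 3.92) and Tagln (6.94 and 10.3) were highest in ratio. Of 13 counted regulators, at a median of 0.663, Foxc1 (2.14 and 5.84 CPM) was higher and Prrx2 (57.4 and 22.8) lower. Smad3 (66.7 and 35.2 CPM), a TGF-beta signal transducer, and Sox4 (417 and 250) came next below, and Smad4 (78.9 and 91.3) and the receptor gene Tgfbr1 (37.7 and 38.2) next above.

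The lists were also read in the Cdkn2a-led cluster. There, where 8.32% of all genes were at least 2-fold higher and 6.64% lower, 5 of 20 counted genes of the epithelial state were at least 2-fold higher in takinib and 0 were lower, with a median ratio of 1.32 against 0.93 over all genes. They were Elf3 (48.3 and 150 CPM), an epithelial transcription factor, Ocln (20.1 and 47.2) and Tjp1 (88.4 and 180), of tight junctions, and the claudins Cldn7 (240 and 507) and Cldn3 (142 and 286). Elf3 and the claudins were also markers used to name the class. Krt8 (2480 and 1566 CPM), Ctnnd1 (366 and 257) and Dsp (195 and 143) were lowest in ratio. Of 15 mesenchymal genes 2 were lower and 3 higher: Fn1 had 7318 and 1808 CPM and the integrin gene Itga5 117 and 38.3, while Mmp2 (2.05 and 7.65), Tagln (10.4 and 21.7) and Tgfbi (27.2 and 55.1) were higher at low levels. Their median ratio was 1.04. Of 13 other regulators 1 was higher, Foxc1 (3.46 and 10.9 CPM), and 1 lower, Prrx2 (102 and 46.7), at a median ratio of 0.71. Fn1 and Itga5 were thus lower in this cluster as in the class.

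Fibroblast-like cells, 688 in vehicle and 347 in takinib, had more Cdh2 and Vim and less Zeb1 in takinib. Cdh2 had 60 counts in vehicle, 20.9 CPM, and 322 in takinib, 86.6 CPM, a ratio of 4.14 [3.14, 5.55]. The share of cells with Cdh2 was 6.1% and 35.2%, at median depths of 3393 and 7706 UMIs. Thinned to 1000 UMIs the ratio was 5.77, the highest of 9 alternatives, and the lowest was 3.77. Vim had 1110 CPM [1072, 1150] and 2129 [2082, 2176], a ratio of 1.92 [1.84, 2], which was 1.39 after thinning and 2.26 against female vehicle cells. Zeb1 had 72.8 and 27.2 CPM, a ratio of 0.373 [0.291, 0.475], and lay between 0.374 and 0.416 in the 9 alternatives. Cdh1 was lower too, on 51 and 25 counts, at the level read above as background. In all, 1 of 8 counted genes was at least 2-fold higher and 2 were at least 2-fold lower, where 7.03% and 10.6% of 8311 genes were.

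The remaining factors of fibroblast-like cells were close. Prrx1 had 195 and 148 CPM, a ratio of 0.761 [0.675, 0.858], Zeb2 277 and 245, Snai1 42.1 and 51.1 and Twist1 41.4 and 49.5. The ratios of Snai1 and Twist1, 1.21 and 1.19, had intervals that took in 1 and turned to 0.864 and 0.933 against female vehicle cells. Takinib fibroblast-like cells with Cdh2 had 2489 CPM of Vim and those without it 1729, and the pair of values in vehicle was 1342 and 1088. Hmga2, a chromatin gene of the regulator list, had 85.3 CPM in takinib cells with Cdh2 and 20.5 in those without, and 3.92 and 6.88 in vehicle. Hmga2 was also among the leading genes of the Cdkn2a-led cluster, at 353 CPM in vehicle and 420 in takinib. Cdkn2a itself had 30.6 CPM in takinib fibroblast-like cells with Cdh2 and 72.7 in those without, and 184 and 204 in vehicle. Any part of carcinoma cells in these values was not tested. Prrx1 did not differ beyond counting error between takinib cells with and without Cdh2, at 144 [128, 162] and 152 [135, 172] CPM. The cells with Cdh2 were deeper, at medians of 12820.5 and 5873 UMIs in takinib and 5484 and 3286 in vehicle.

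Fibroblast markers, 10 of 10 detected, summed to 34114 CPM in vehicle and 21686 in takinib, epithelial markers to 405 and 448, and neutrophil markers to 228 and 10257, and their part in the values was not tested. Over all genes of these cells 7.03% were at least 2-fold higher and 10.6% lower. Of 16 mesenchymal genes, 2 were at least 2-fold higher in takinib fibroblast-like cells, among them S100a4 (44.6 and 234 CPM). Another 4 were lower: Thy1 (1078 and 125 CPM), a surface glycoprotein of fibroblasts, Mmp2 (1074 and 301), Cdh11 (584 and 172), a further mesenchymal cadherin, and Mmp14 (721 and 329). Mmp2 was also a marker used to name the class. Of 12 regulators 1 was higher, Hmga2 (6.62 and 54.6 CPM), and 4 were lower, Tcf4 (410 and 75 CPM), Tgfbr2 (435 and 136), Prrx2 (39.7 and 15.6) and Tgfb1 (194 and 79.6). Smad3 (24.4 and 27.4 CPM) and Smad4 (74.2 and 71) followed Hmga2 at the top. Of 9 epithelial genes, 1 was higher, Cdh3 (18.5 and 53.8 CPM), which encodes P-cadherin. The keratins Krt18 (47.7 and 83.1 CPM) and Krt19 (62.7 and 97.4) came next, and Ctnnd1 (99.6 and 61.9), Tjp1 (73.8 and 48.1) and Ctnnb1 (393 and 300) were lowest. The medians were 0.754, 0.651 and 0.794 for the mesenchymal, regulator and epithelial lists, against 0.936 over all genes.

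Macrophage-like cells, 4976 in vehicle and 7014 in takinib, had more Vim and Zeb2 in takinib. Vim stood at 703 CPM [692, 715] and 1562 [1550, 1573], a ratio of 2.22 [2.18, 2.26], and against female vehicle cells the ratio was 1.54. Zeb2, used by the macrophage lineage, stood at 359 and 540 CPM, a ratio of 1.5 [1.47, 1.54]. Snai1 had 21 and 121 counts, a ratio of 2.6 [1.63, 4.35], at levels of 0.984 and 2.56 CPM. In these cells the macrophage markers, 12 of 12 detected, summed to 23075 CPM in vehicle and 12645 in takinib, and the neutrophil markers, 9 of 9, to 419 and 8485, and their part in the result was not tested. Of 5 counted genes 2 were at least 2-fold higher and 0 lower, where 6.58% and 6.01% of 11904 genes were.

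Different clusters made up most of the macrophage-like class in each library. An Apoe-led cluster held 3786 vehicle and 426 takinib cells, a U90926-led cluster 95 and 3020, and a Gpnmb-led cluster 205 and 1937. Vim was higher in takinib within each of the Apoe-led (563 and 955 CPM), U90926-led (1262 and 1432), Gpnmb-led (1061 and 2031) and proliferating Pclaf-led clusters (1076 and 1923). In the Chil3-led cluster, with 656 and 1451 cells, Vim was closer, at 1073 [1038, 1110] and 1133 [1111, 1154] CPM. Zeb2 was higher in takinib in all 5, from 295 and 370 CPM in the Pclaf-led to 449 and 611 in the U90926-led cluster, and its intervals overlapped in the Gpnmb-led cluster alone, at 513 [468, 562] and 548 [536, 560].

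There were 266 neutrophil-like cells of vehicle and 7997 of takinib. Vim had 72 counts in vehicle, 202 CPM, and 438 CPM in takinib, a ratio of 2.17 [1.72, 2.78]. Zeb2 had 40 counts, 112 CPM, and 305 CPM, a ratio of 2.72 [1.99, 3.81]. Snai1 had 1 count in vehicle and 252 in takinib, a ratio of 5.35 [0.952, 212] whose interval took in 1. Cdh1 was lower, on 17 and 229 counts. So 3 of 5 counted genes, Snai1 among them, were at least 2-fold higher and 1 lower, where 7.77% and 31% of 8948 genes were. The class held 356463 UMIs in vehicle and 16779066 in takinib. Of the counted genes all but Vim reached the minimum count in takinib alone, so that the tally does not show a rise of the set. Over the alternatives Vim ran from 1.71 with no doublets removed, under 2-fold, to 3.21 scaled to the median gene, and Zeb2 from 2.18 to 4.02. Of the vehicle cells 258 were in an Ins2-led cluster that also held 2250 of takinib, while Lst1-led and Csta2-led clusters of 3048 and 1990 cells had 0 of vehicle.

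Endothelial-like cells, 680 in vehicle and 101 in takinib, had a Vim ratio of 1 [0.947, 1.06], which was 1.51 against the 63 female vehicle cells. Zeb2 stood out, with 74 counts or 37.5 CPM in vehicle and 118 counts or 170 CPM in takinib, a ratio of 4.53 [3.36, 6.14] that was 2.23 when no doublets were removed. Zeb1 had 198 and 131 CPM, a ratio of 0.661 [0.52, 0.832]. Twist1 had 1 count in vehicle and 13 in takinib, 0.507 and 18.7 CPM, a ratio of 36.9 [5.54, 1569]. In takinib 10 of the 101 cells held 55% of Vim counts, and in vehicle 10 of 680 held 16.8%. Without these 10 cells of each library the Vim ratio was 0.65 [0.601, 0.702]. As 10 cells are a larger part of 101 than of 680, this step lowers the ratio by itself and does not show on which cells it rested. Of 3 counted genes 1 was at least 2-fold higher and 0 lower, where 4.68% and 12.3% of 6240 genes were. Neutrophil markers (8 of 9 and 9 of 9 detected) came to 495 and 26727 CPM in these cells and Ptprc to 67.9 and 207, and their part in the result was not tested.

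In T-like and B-like cells 0 of 3 and 0 of 4 counted genes passed 2-fold in either direction, where 8.44% of T-like and 11.1% of B-like genes were higher and 3.14% and 3.91% lower. Zeb2 had 130 and 208 CPM in T-like cells, a ratio of 1.6 [1.25, 2.08], and 199 and 284 in B-like cells, 1.43 [1.17, 1.75]. At most 10% mitochondrial UMIs the ratio in T-like cells was 1.06 [0.79, 1.44], and thinned to 1000 UMIs that in B-like cells was 1.16 [0.842, 1.63]. Neutrophil markers, 8 and 9 of 9 detected, summed to 562 and 18502 CPM in T-like and to 767 and 39174 in B-like cells, and their part was not tested. Vim had ratios of 1.07 [0.954, 1.21] and 1.24 [1.08, 1.43]. Zeb1, a factor also at work in lymphocytes, had ratios of 1.22 [0.747, 2.13] and 0.708 [0.457, 1.14], both taking in 1. Snai2 was at 0 counts in both libraries of B-like cells.

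Co-detection with epithelial genes was counted without clusters. Cells with a UMI of Epcam or Krt18 numbered 2850 in vehicle and 5176 in takinib, at median depths of 4543.5 and 4428.5 UMIs. Vim was found in 53.5% [51.7, 55.4] and 53.9% [52.5, 55.2] of them, which did not differ beyond counting error. Thinned to 1000 UMIs the shares were 25.9% [23.9, 28] and 21.4% [19.9, 22.9], and in cells without Ptprc they were 46.4% and 39.5%. With both Epcam and Krt18 the order turned, to 37.3% and 44.2%, at median depths of 5706 and 10401 UMIs. Epithelial-like cells made up 56.9% of these vehicle cells and 33.7% of these takinib cells, macrophage-like cells 27% and 19.2%, and neutrophil-like cells 1.79% and 20.4%. Epcam was found in 9.09% and 8.58% of T-like cells, and 39 of 253 and 184 of 1247 T-like cells entered the gate. T-like cells were shallower, at medians of 1429 and 1880 UMIs, so that these shares do not give the level of free RNA in the gate. The share of cells of the gate with Vim thus mixed several classes, and it did not follow the level in epithelial-like cells. Within the epithelial-like class the share with Vim was 36.5% [34.2, 38.8] in vehicle and 43.6% [41.3, 45.9] in takinib. Median depths there were 5046 and 9205 UMIs. Before thinning, that share did not follow the level either. Thinned to 1000 UMIs, Vim was found in 400 of 1749 and 318 of 1867 epithelial-like cells.

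Shares of the other genes in the same gate depended on the setting for several of them. Cdh1 was found in 48.1% [46.2, 49.9] of vehicle and 32.1% [30.9, 33.4] of takinib cells, Cdh2 in 9.02% and 2.98%, Zeb1 in 11.4% and 6.96%, Snai2 in 1.89% and 0.483% and Prrx1 in 4.18% and 1.6%. Zeb2 was higher in takinib, at 37.2% and 48.8%, and Snai1 too, at 2.67% and 3.69%. The Snai1 intervals, [2.11, 3.33] and [3.19, 4.24], overlapped. Twist1 was at 5.44% [4.63, 6.34] and 4.58% [4.03, 5.18]. With both Epcam and Krt18, Cdh1 turned to 75.5% and 79.3%, and without Ptprc Snai1 turned to 3.26% and 2.34%. Thinned to 1000 UMIs, Zeb1 was at 2.16% [1.55, 2.94] and 1.73% [1.29, 2.26], and the intervals of Snai2 and of Prrx1 overlapped too. Thinned Cdh2, at 1.52% [1.01, 2.18] and 0.365% [0.182, 0.652], and thinned Zeb2, at 8.71% and 15.7%, kept their order. Cells of the gate with Vim held Ptprc in 44.1% of vehicle and 72.8% of takinib, those without Vim in 25.7% and 51.3%. Those with Vim were deeper, at medians of 5180 and 3906 UMIs in vehicle and 5612 and 2882.5 in takinib. Thinned to 1000 UMIs, Ptprc was in 10.2% of vehicle cells with Vim and 9.28% without, and in 34.9% and 25.2% in takinib. Without thinning, Cdh1 was in 39.3% and 58.2% of vehicle cells with and without Vim and in 27.7% and 37.4% of takinib cells. Prrx1 went with collagen, again without thinning. Col1a1 was in 79.8% of vehicle cells of the gate with Prrx1 and in 15.5% without, and in 50.6% and 5.4% in takinib.

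The genes whose levels were most like each member were found over 17 class and library profiles, as Pearson's r of log2(CPM + 10), among 12538 genes. The profiles share libraries and depth within each library, and r is given as a description. Cdh1 was most like Ckmt1, Dsp and Gpa33, each at 0.97, of which Dsp encodes desmoplakin of epithelial junctions. Prrx1 was most like Rtn2 (0.99) and Cygb (0.98), and Twist1 most like Tpm2 (0.98), Meg3 (0.97) and Mapk8ip1 (0.96). Cdh2 was most like Cfap69 (0.97), Wnt5a (0.95) and Tpm2 (0.93), a tropomyosin gene that also led the list of Twist1. Snai2 was most like Rgs16 (0.98), Pcdh19 (0.97) and Itga1 (0.97), and Snai1 most like Hoxb7 (0.95), C1qtnf1 (0.94) and Adgra2 (0.93). Values were lower for Vim, which was most like Ano6 (0.91), Dst (0.89) and Tpm4 (0.89), and for Zeb1, most like Pitpnm2 (0.9), Ehd3 (0.89) and Ttc28 (0.89). They were lowest for Zeb2, most like Cd302 (0.86), Ifi204 (0.84) and Agtrap (0.81). No member was among the 3 genes most like another member.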

How the data were processed

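As deposited by the authors, each matrix gives UMI counts for every gene in every cell barcode, with no normalization. The matrix headers name Cell Ranger 4 for vehicle and 6.1.1 for takinib, per the file headers, while the submitters' processing notes name mm10, Cell Ranger 2.1.1, bcl2fastq, STAR 2.0.4b, Subread and featureCounts 1.45, with no role given. The takinib barcodes held at least 500 UMIs each before any filter here, and the vehicle matrix held barcodes without UMIs. Cells with at least 1000 UMIs, 500 genes and at most 20% mitochondrial UMIs were kept. Scrublet marked 3.18% of vehicle barcodes as doublets (314 removed) and 0.00373% of takinib barcodes, where the top 6% of scores (1607) were removed instead. Clusters came from scanpy 1.11.5 (2000 variable genes without the 9 genes, 30 components, 15 neighbours, Leiden resolution 1, igraph 0.11.9, seed 1), which gave 27 clusters. The naming rule was set after seeing the data: a name needed 3 markers in at least 10% of cells, and a second class scoring at least 0.75 of the best left a cluster unnamed, as did leading genes of another class. Differences from other work may come from these rebuilt names.

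Counts were summed per class and library and scaled to CPM. Intervals are exact Poisson for levels, exact conditional binomial for ratios and Clopper-Pearson for shares. A gene was counted in a comparison with at least 50 counts in either library and marked when its ratio was at least 2 or at most 0.5. No test was run and cells were not treated as replicates. Alternatives covered depth, mitochondrial and doublet filters, clustering, thinning, sex of the vehicle cells, a marker gate and scaling. The ratio step was checked on simulated data. Named genes are all 9, the 3 highest and 3 lowest ratios of each list in epithelial-like and fibroblast-like cells, the 3 most alike genes per member, and Epcam, Krt18, Cdkn2a, Ptprc, S100a8 and S100a9. List genes of the Cdkn2a-led cluster, further list genes past 2-fold, and Sparc, Col1a1 and Hmga2 beside the bins and the Cdh2 cells were chosen after their values were seen. The 9 genes and the lists were chosen with earlier results of these data known. A few genes that the naming rule selects are not reported here.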

Additional observations from a re-analysis of the deposited data

Results flagged for a closer look

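Vim and Cdh2 differed between the libraries in opposite directions in different classes. The takinib to vehicle ratio of Vim was 0.248 in epithelial-like cells, and 2.22 in macrophage-like and 2.17 in neutrophil-like cells. The ratio of Cdh2 was 0.256 in epithelial-like cells, and fibroblast-like cells had 4.14. With 1 library per group the difference between classes was not tested. For each gene the interval in epithelial-like cells lay apart from those in the other classes named, and the intervals cover counting error only. With no doublets removed the Vim ratio in neutrophil-like cells was 1.71.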

How the results depend on the processing

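No paired analysis was possible because each group has 1 library. In epithelial-like cells the Vim ratio of 0.248 was 0.203 at most 10% mitochondrial UMIs, 0.276 with no doublets removed, 0.387 thinned to 1000 UMIs, 0.281 against female and 0.211 against male vehicle cells, 0.378 in cells with Epcam or Krt18 and no Ptprc, 0.116 in takinib cells without S100a8 or S100a9, which left under 50 cells of the Cdkn2a-led cluster and so changed the mix of clusters, and 0.273 scaled to a median of 1. The Cdh1 ratio of 0.941 was 0.899 against female vehicle cells, 0.879 in cells with Epcam or Krt18 and no Ptprc, and 1.04 when scaled. The Vim ratio of 1.92 in fibroblast-like cells was 1.39 thinned, 2.26 against female and 1.82 against male vehicle cells, and 2.05 scaled. In macrophage-like cells the Vim ratio of 2.22 was 2.06 at the mitochondrial limit of 10%, 2.15 with no doublets removed, 2.18 thinned, 1.54 against female and 2.34 against male vehicle cells, 2.34 without S100a8 or S100a9 and 2.26 scaled. The share of vehicle cells with Epcam or Krt18 that held Vim was 25.9% thinned, 37.3% with both genes, 46.4% without Ptprc, 56.3% at 2000 UMIs and 1000 genes, and 55.5% in female cells. In takinib the shares were 21.4%, 44.2%, 39.5% and 62.4% in the first 4 of these, and 56.1% with no doublets removed. The Prrx1 ratio in epithelial-like cells turned from 5.58 to 0.816 in cells with Epcam or Krt18 and no Ptprc, a gate that takes in other classes. Beyond the values drawn from the definitions of these settings, the cause was not tested. The settings with male vehicle cells and without S100a8 or S100a9 were chosen after seeing the data. Of the values above 32 moved beyond counting error, and 20 under other settings did not. Among the other genes and classes 140 moved, 296 did not and 1, the Prrx1 ratio, was marked as reversed. Another 56 combinations with under 50 cells or too few counts gave no value. Other ratios crossed 1 without that mark, such as Twist1 in epithelial-like cells (0.536 to 1.54) and in the Cdkn2a-led cluster (0.657 to 2.04). Depth limits Snai2 most, which had under 50 counts in both libraries in each of the 7 compared classes.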

Other observations

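A group of 4494 takinib cells stayed unnamed, against 13 cells of vehicle. Snai1 was at 20.1 CPM [18, 22.4] in them, above the 15 [13.2, 17] of neutrophil-like cells of takinib, and Zeb2 was at 322 and Vim at 396. Most of them, 4117 cells, were in a cluster that scored highest for neutrophil markers but was led by Ppy. In erythroid-like cells of takinib, 432 in number, Zeb2 was at 157 CPM and Zeb1, a zinc finger factor, at 24.6. Plasma-like cells of takinib, 202 in number, had 57.7 CPM of Zeb2 and the lowest Vim of the classes with at least 100 cells, 142 CPM.

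The 14 perivascular-like cells of takinib were too few to compare. Their counts came to 227 for Vim, 28 for Prrx1, 12 for Twist1, 11 for Snai1 and 4 for Cdh2. In vehicle the 592 perivascular-like cells held 4932, 717, 210, 87 and 161 counts of the same genes.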
